A study of Homo sapiens with 8 samples.

Results

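The writers, the erasers and UHRF1 of DNA methylation are 9 genes: DNMT1, DNMT3A, DNMT3B, UHRF1, TET1, TET2, TET3, TDG and MBD2. They were taken by symbol, each symbol matched 1 identifier, and they make 9 of the 57500 genes counted. DNA methyltransferases (DNMTs) transfer a methyl group from S-adenosylmethionine (SAM) to cytosines, mostly in CpG dinucleotides: DNMT3A and DNMT3B write new marks, and DNMT1 copies marks to the new strand after replication, where UHRF1 guides it to hemimethylated sites. TET dioxygenases oxidize 5-methylcytosine with 2-oxoglutarate as a cosubstrate, and the glycosylase TDG cuts out the most oxidized forms so that base excision repair can restore an unmodified cytosine. MBD2 binds methylated CpG and brings the NuRD repressor complex to it.

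RNAseq compared HEK293T cells, a human embryonic kidney line with the large T antigen of SV40, after 48 h with 100 µM DZNep or with vehicle (Control). DZNep, or 3-deazaneplanocin A, resembles adenosine and blocks AHCY, the hydrolase of S-adenosylhomocysteine, a product of SAM-dependent methyltransferases that inhibits them. Each group held 4 libraries, numbered as replicates 1 to 4, of 1 established line without a genetic change made for the comparison. Transcripts were measured, not proteins or methylated cytosines, and lower levels in fewer cells cannot be told apart from less RNA per cell in these bulk samples. The study calls the replicates biological, and the labels do not say whether each came from a culture of its own.

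Library totals ranged from 25043058 counts in Control replicate 1 to 44902779 counts. Of 13 genes that HEK293 cells are known to express, 12 had over 100 normalized counts in every library. DZNep replicate 2 stood apart from the other 7 libraries in some marker genes of other cell types. It held 15.3 normalized counts of COL1A2 against 898 to 2167, 296 of KRT5 against at most 6.05, and 450 of LYZ against 18.3 to 30.8. COL1A1 did not stand apart, at 2365 in this library against 2248 to 4682. The 10 fibroblast markers summed to 3810 normalized counts in that library, to between 8914 and 10378 in the other DZNep libraries and to between 4953 and 9748 in the Control libraries. The 10 leukocyte markers summed to between 453 and 669 in Control and between 453 and 764 in DZNep libraries, with MS4A1 at 0 in all 8. The 9 epithelial markers summed to between 259 and 352 in Control and between 1064 and 1699 in DZNep libraries. In both sums DZNep replicate 2 was the highest, at 764 and 1699, but close to the highest of the other DZNep libraries, at 748 and 1671. The part of these differences in the results was not tested. Without DZNep replicate 2, the members that passed the test remained past it, as given with each. Of the others, the log2 fold change was -0.29 for DNMT1, 0.37 for TET2, -0.25 for MBD2, -0.16 for TET1, -0.083 for UHRF1 and -0.011 for DNMT3B, and none passed. Mitochondrial transcripts took 7.76% and 13.7% of the counts in Control replicates 1 and 4 and 7.04% and 10.1% in DZNep replicates 1 and 4, against 3.02% to 4.44% in replicates 2 and 3 of both groups.

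DNMT3A, TET3 and TDG were the members whose transcript level passed the test, so the promoter of each is shown as the stretch of 300 bases around its first listed start in RefSeq (GRCh38.p14), 5′ to 3′ on the strand of the gene. Capitals mark CpG dinucleotides (CG, which reads the same on both strands), the substrate of the proteins described here. The DNMT3A window lies at chr2:25342434-25342733 on the minus strand, the TET3 window at chr2:73984660-73984959 and the TDG window at chr12:103965622-103965921, both on the plus strand.
DNMT3A: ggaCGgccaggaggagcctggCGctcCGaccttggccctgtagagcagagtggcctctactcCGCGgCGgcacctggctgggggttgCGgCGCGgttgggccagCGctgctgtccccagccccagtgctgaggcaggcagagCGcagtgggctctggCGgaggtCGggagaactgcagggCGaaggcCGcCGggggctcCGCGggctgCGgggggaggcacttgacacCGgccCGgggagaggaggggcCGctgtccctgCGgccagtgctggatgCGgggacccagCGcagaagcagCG
TET3: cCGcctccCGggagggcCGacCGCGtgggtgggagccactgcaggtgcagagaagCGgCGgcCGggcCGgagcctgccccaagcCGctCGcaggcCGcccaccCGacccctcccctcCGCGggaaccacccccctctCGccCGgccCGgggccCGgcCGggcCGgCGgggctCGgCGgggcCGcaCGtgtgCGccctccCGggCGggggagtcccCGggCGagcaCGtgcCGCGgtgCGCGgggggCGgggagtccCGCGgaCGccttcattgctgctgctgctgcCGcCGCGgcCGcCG
TDG: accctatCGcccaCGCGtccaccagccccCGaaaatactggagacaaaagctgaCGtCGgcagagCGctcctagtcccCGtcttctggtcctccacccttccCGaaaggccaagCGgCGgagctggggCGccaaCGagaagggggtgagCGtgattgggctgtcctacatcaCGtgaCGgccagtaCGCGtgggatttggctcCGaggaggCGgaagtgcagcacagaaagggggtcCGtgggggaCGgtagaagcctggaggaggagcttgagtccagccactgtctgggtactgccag
The letters CG occurred 26 times in the DNMT3A window, 45 times in that of TET3 and 22 times in that of TDG, against a median of 14 over 35116 promoters of the same length. As many or more were found in 30.1%, 3.48% and 37.7% of those promoters. Second listed starts held 28 CG for DNMT3A (chr2:25252266-25252565) and 33 for TET3 (chr2:74002442-74002741). Among the members that did not pass the test, UHRF1 held 36 CG, MBD2 32, DNMT1 30, TET2 13, TET1 10 and 6 at its starts, and DNMT3B 3. The DNMT3B window (chr20:32779602-32779901) lay inside the GENCODE gene, which begins at 32762385. The windows of DNMT1 (chr19:10194904-10195203) and UHRF1 (chr19:4909251-4909550) also lay inside their GENCODE genes. For these genes the count therefore does not describe the outermost start. Methylation of these windows was not measured in these data.

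In normalized counts, DNMT3A fell and TET3 rose in DZNep-treated cells with no overlap between the groups. TDG fell to a similar extent as DNMT3A but with overlapping libraries. With counts per library total instead, the groups overlapped for TET3 but not for TDG. DNMT1, UHRF1 and DNMT3B did not pass the test and differed between the group means by less than 10%. All 9 members passed the filter on low counts and were tested with edgeR's quasi-likelihood test, with Benjamini-Hochberg adjustment over the 19171 genes tested. At an adjusted p under 0.05, 3 of the 9 members changed, 1 higher and 2 lower. The share over all genes tested was 40.5%, with 18.9% higher and 21.6% lower, so members changed about as often as genes at large. With an absolute log2 fold change over 1 required as well, 0 of 9 members passed by edgeR, against 24.1% of all genes (10.6% higher and 13.4% lower). In normalized counts, the libraries of the groups did not overlap for 1 member in the higher and 1 in the lower direction, against 19.5% and 19.4% of all genes. The plot of normalized counts by library shows each member on its own scale.

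**Figure D1:**
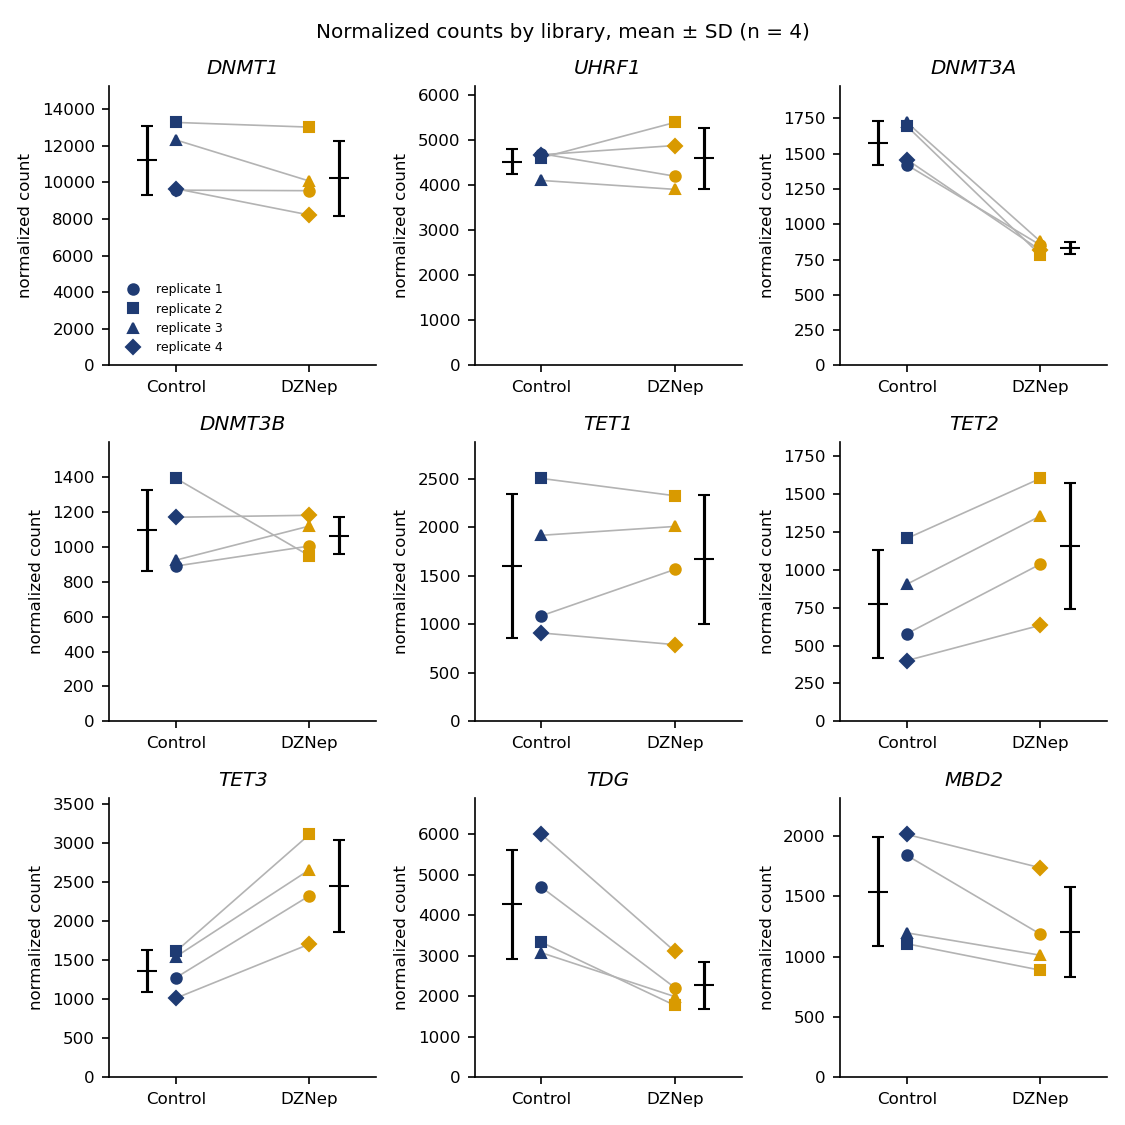
Normalized counts (vertical axes, linear from 0) of the 9 members in 4 Control and 4 DZNep libraries; symbols mark replicate numbers, grey lines join libraries of the same number, and bars show mean ± SD. DNMT3A falls from between 1420 and 1721 to between 783 and 878, TET3 rises in all 4 pairs, and TET2 lies higher in DZNep within each pair while its groups overlap.

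Among the writers, DNMT3A (ENSG00000119772, chr2:25227855-25342590, minus strand, GRCh38), the de novo methyltransferase of most differentiated cells, had 1420, 1695, 1721 and 1458 normalized counts in Control replicates 1 to 4 and 853, 783, 878 and 816 in DZNep replicates 1 to 4. The highest DZNep library lay below the lowest Control library, and the DZNep values spread less. The mean fell by 47.1%, from 1573 ± 156 to 832 ± 41.9 normalized counts (SD, n = 4). The log2 fold change was -0.95 (SE 0.13, edgeR adjusted p = 0.000419), just short of the fold threshold. The log2 ratios within the pairs of the same replicate number were -0.74, -1.11, -0.97 and -0.84, so that the lower level was seen in 4 of 4 pairs. Without DZNep replicate 2 the log2 fold change was -0.91 (edgeR adjusted p = 0.00245), and in replicates 1 and 4 and replicates 2 and 3 taken alone it was -0.77 and -1.07.

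DNMT3B (ENSG00000088305, chr20:32762385-32809359, plus strand), the other de novo enzyme, which is prominent in embryonic and stem cells, had 890, 1391, 924 and 1169 normalized counts in Control and 1004, 948, 1118 and 1180 in DZNep replicates. All 4 DZNep values lay within the Control range. The log2 fold change was -0.07 (SE 0.17, 95% interval -0.46 to 0.32, edgeR adjusted p = 0.779). Replicate 2 was lower in DZNep, with a log2 ratio of -0.55, whereas the other 3 pairs were higher by 0.17, 0.28 and 0.01, and without either library of replicate 2 the log2 fold change turned to 0.14 (edgeR adjusted p = 0.572). A difference in DNMT3B beyond the spread of the replicates was therefore not detected.

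DNMT1 (ENSG00000130816, chr19:10133342-10231286, minus strand), the maintenance methyltransferase, had 9573, 13270, 12313 and 9650 normalized counts in Control and 9543, 13015, 10068 and 8214 in DZNep replicates. Replicate 2 was the highest library of either group. The log2 fold change was -0.16 (SE 0.19, 95% interval -0.58 to 0.25, edgeR adjusted p = 0.526). DZNep was the lower library in 4 of 4 pairs, with log2 ratios of only -0.0046 and -0.028 in replicates 1 and 2 and of -0.29 and -0.23 in replicates 3 and 4. UHRF1 (ENSG00000276043, chr19:4903080-4962154, plus strand) reads hemimethylated CpG through its SRA domain. It had 4706, 4616, 4112 and 4683 normalized counts in Control and 4206, 5401, 3913 and 4888 in DZNep replicates, with 2 pairs higher and 2 lower. Its log2 fold change was -0.0047 (SE 0.15, 95% interval -0.33 to 0.32, edgeR adjusted p = 0.983), the smallest of the 9.

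Among the erasers, TET3 (ENSG00000187605, chr2:73984910-74108176, plus strand), known for the oxidation of the paternal genome after fertilization, had 1280, 1616, 1548 and 1016 normalized counts in Control and 2328, 3114, 2661 and 1709 in DZNep replicates. The lowest DZNep library, replicate 4, lay above the highest Control library, replicate 2. The mean rose by 79.7%, from 1365 ± 274 to 2453 ± 591 normalized counts (SD, n = 4), with a log2 fold change of 0.82 (SE 0.22, edgeR adjusted p = 0.0125). The log2 ratios within pairs were 0.86, 0.95, 0.78 and 0.75, a narrower spread than that of the libraries of either group. Without DZNep replicate 2 the log2 fold change was 0.69 (edgeR adjusted p = 0.0409), and it was 0.84 in replicates 1 and 4 and 0.83 in replicates 2 and 3.

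TET2 (ENSG00000168769, chr4:105145875-105279816, plus strand), a tumour suppressor often mutated in blood cancers, had 578, 1205, 904 and 401 normalized counts in Control and 1036, 1600, 1353 and 633 in DZNep replicates. The groups overlapped, yet DZNep was the higher library in 4 of 4 pairs, by 0.84, 0.41, 0.58 and 0.66 on the log2 scale. Without a term for the replicate number the log2 fold change was 0.56 (SE 0.36, edgeR adjusted p = 0.250). With the replicate number as a block it was 0.59 (SE 0.12, edgeR adjusted p = 0.000679). It was 0.80 in replicates 1 and 4 (edgeR adjusted p = 0.0335) and 0.45 in replicates 2 and 3 (edgeR adjusted p = 0.0421). Both selections were made after seeing the data and put libraries of similar TET2 level together, which leaves out much of the spread. Their p-values are therefore no independent support. Among the alternatives run, TET2 passed the threshold with the block and in these 2 selections of libraries, and in no other.

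TET1 (ENSG00000138336, chr10:68560337-68694487, plus strand), the TET enzyme of embryonic stem cells and primordial germ cells, had 1088, 2502, 1917 and 911 normalized counts in Control and 1565, 2324, 2008 and 791 in DZNep replicates. Replicates 2 and 3 lay above replicates 1 and 4 in both groups, with a range of 2.75-fold within Control and 2.94-fold within DZNep. The log2 fold change between treatments was 0.034 (SE 0.38, 95% interval -0.81 to 0.88, edgeR adjusted p = 0.954), and with the block it was 0.042 (SE 0.13, edgeR adjusted p = 0.804). Of the TET genes, TET1 was the one with pairs in both directions, at 0.52, -0.11, 0.07 and -0.20 on the log2 scale. TET2 had the same order of libraries, and its range was 3.01-fold within Control and 2.53-fold within DZNep. The lower libraries of TET1 and TET2 were those with the higher mitochondrial share, whose part in this was not tested.

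TDG (ENSG00000139372, chr12:103965822-103988874, plus strand), the thymine DNA glycosylase that removes formylcytosine and carboxylcytosine, had 4688, 3331, 3073 and 5991 normalized counts in Control and 2214, 1776, 1992 and 3107 in DZNep replicates. DZNep replicate 4 lay just above Control replicate 3, and the other DZNep libraries lay below all Control libraries. The mean fell by 46.8%, from 4271 ± 1348 to 2272 ± 585 normalized counts (SD, n = 4), with a log2 fold change of -0.94 (SE 0.25, edgeR adjusted p = 0.0136). Within pairs the log2 ratios were -1.08, -0.91, -0.63 and -0.95, lower in 4 of 4. In contrast to TET1 and TET2, TDG was higher in replicates 1 and 4 than in replicates 2 and 3 of the same group. The log2 fold change was -0.99 in replicates 1 and 4, -0.80 in replicates 2 and 3, and -0.83 without DZNep replicate 2 (edgeR adjusted p = 0.0437).

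MBD2 (ENSG00000134046, chr18:54151606-54224669, minus strand), the reader among the 9, was like TDG higher in replicates 1 and 4 than in replicates 2 and 3 of both groups. It had 1841, 1108, 1199 and 2014 normalized counts in Control and 1188, 889, 1013 and 1738 in DZNep replicates. The groups overlapped and DZNep was lower in 4 of 4 pairs, with log2 ratios of -0.63, -0.32, -0.24 and -0.21. The log2 fold change was -0.38 (SE 0.26, edgeR adjusted p = 0.275), and with the block it was -0.38 (SE 0.12, edgeR adjusted p = 0.0125). In replicates 1 and 4 it was -0.39 (edgeR adjusted p = 0.172) and in replicates 2 and 3 it was -0.31 (edgeR adjusted p = 0.126), so that neither selection alone passed the threshold.

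The replicate block raised the number of members at an adjusted p under 0.05 from 3 to 5, by adding TET2 in the higher and MBD2 in the lower direction, while the share over all genes rose from 40.5% to 59.0%. The block and the pairs take libraries of the same number as matched, which was not tested against other matchings. For single members, the exact permutation test over the 70 assignments of 4 against 4 libraries (two-sided, log2 normalized counts, 9 members tested, not adjusted) gave p = 0.0286 for DNMT3A and TET3, the smallest it can give. It gave an exact permutation p of 0.0571 for TDG and of 0.229 for TET2 and MBD2. With counts per library total in place of the size factors, the exact permutation p was 0.0857 for TET3 and 0.0286 for TDG.

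**Figure D2:**
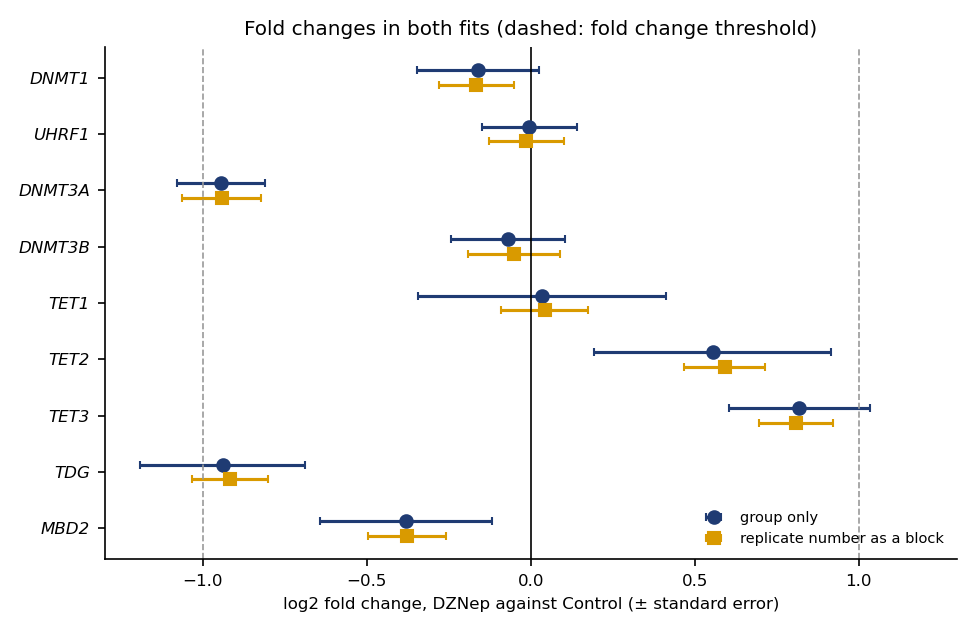
Log2 fold change of DZNep against Control (horizontal axis) for the 9 members, with standard errors as bars, fitted by group alone (circles) or with a block for the replicate number (squares); dashed lines mark the fold threshold of 1 in either direction. Estimates differ little between the fits, while the standard error of TET2 falls from 0.36 to 0.12 and that of TET1 from 0.38 to 0.13.

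Levels can be compared between genes once divided by length, here as normalized counts per kb of the union of exons. In Control cells the order was UHRF1 with 880 ± 54.6, TDG with 874 ± 276, DNMT1 with 728 ± 122, MBD2 with 271 ± 79.9, TET1 with 167 ± 77.2, DNMT3B with 159 ± 34.1, DNMT3A with 114 ± 11.3, TET3 with 105 ± 21.2 and TET2 with 46.9 ± 21.6 normalized counts per kb (SD, n = 4). Within 1 SD, UHRF1, TDG and DNMT1 met each other, as did TET1, DNMT3B, DNMT3A and TET3, and MBD2 met TET1 and DNMT3B. The order among genes that met is not resolved. In DZNep cells UHRF1 stood at 895 ± 130 per kb, DNMT1 at 664 ± 132 and TDG at 465 ± 120, where TDG and DNMT1 met within 1 SD and TDG and UHRF1 did not. TET3 stood at 190 ± 45.7 per kb, beside TET1 at 174 ± 69.2 and DNMT3B at 155 ± 15.4, and DNMT3A at 60.4 ± 3.04, beside TET2 at 70.1 ± 25.4. The order depends on the length used: per kb of the longest transcript DNMT1 was the highest in Control, at 1565.

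The makeup of the families followed from these levels and is given as a description. TET3 took 34.7 ± 6.23% of the summed TET level per kb in Control and 44.9 ± 5.09% in DZNep (SD, n = 4), with ranges of 27.2% to 40.0% and 41.4% to 52.2% that did not overlap. TET1 took 51.0 ± 5.01% and 39.1 ± 4.46%, also without overlap, and TET2 took 14.3 ± 1.51% and 16.0 ± 0.761%, with overlap. In Control cells TET1 was thus the most abundant TET transcript per kb in all 4 libraries, and in DZNep cells TET3 exceeded it in replicates 1 and 4, with 44.3% and 52.2% against 40.2% and 32.6%. Per kb of the longest transcript, TET3 exceeded TET1 in 4 of 4 DZNep libraries and in 0 of 4 Control libraries. The summed TET level was 247, 458, 374 and 198 per kb in Control and 406, 580, 497 and 253 in DZNep replicates, higher with DZNep in each pair. Of DNMT3A and DNMT3B together, DNMT3A took 42.2 ± 4.98% in Control and 28.2 ± 1.82% in DZNep, with ranges of 37.8% to 48.2% and 25.6% to 29.8%. With the longest transcript as the length, the differences were 9.06 percentage points for TET3 and -13.6 for DNMT3A, against 10.1 and -14.0.

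**Figure D3:**
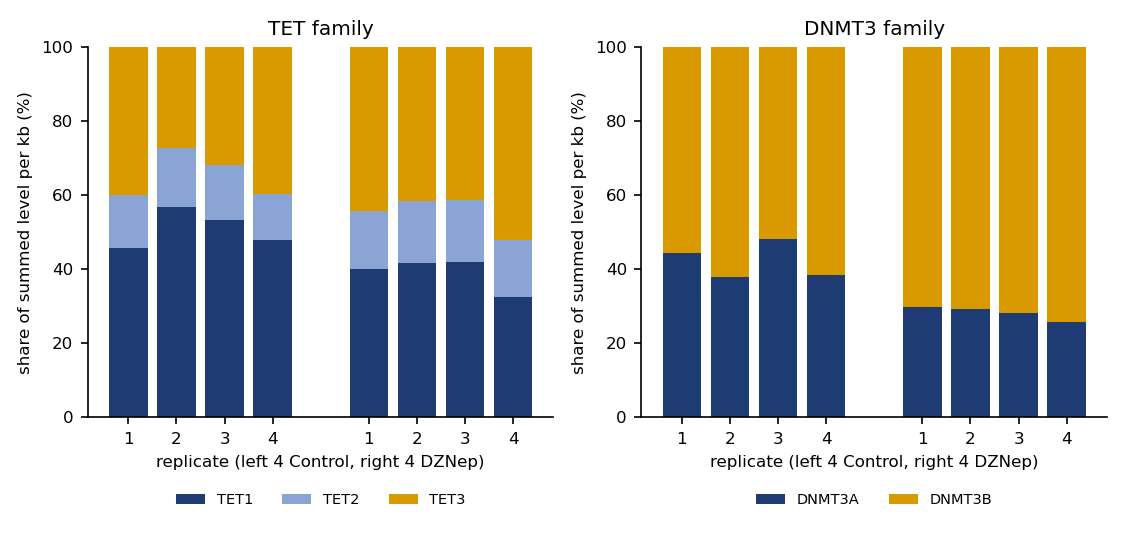
Share of each gene in the summed normalized counts per kb of its family (vertical axis, %), for TET1, TET2 and TET3 (left) and DNMT3A and DNMT3B (right), 1 bar per library. The TET3 share is at most 40.0% in Control and at least 41.4% in DZNep libraries, and the DNMT3A share is at least 37.8% in Control and at most 29.8% in DZNep libraries.

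In the GENCODE annotation, the exons of 3 members overlapped those of another gene on the same strand. DNMT1 overlapped S1PR2 on the same strand over 83 bp, which is 0.540% of its exons, TET3 overlapped a long noncoding RNA over 390 bp (3.01%) and TDG another over 168 bp (3.44%). The pseudogene TDGP1 had 2 to 13 counts, DNMT3AP1 at most 1 and TET1P1 0 in every library, and the antisense gene TET2-AS1 had 1 to 20 counts, and reads that fit more than 1 place are not in these counts of uniquely assigned reads, so how many were shared with copies is unknown.

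For the 3 members that passed the test, the genes with the most similar profile were sought among 9011 genes over the 8 libraries, by the root mean square difference of log2 CPM around each gene's own mean. Among those named here, CEP57, a centrosomal protein, followed DNMT3A with 0.0646 and COG4, a subunit of the Golgi tethering complex COG, with 0.0723. PDP1, a phosphatase of pyruvate dehydrogenase, followed TET3 with 0.0678, and the zinc finger genes ZBTB39 and ZFX with 0.0734 and 0.0762. TDG was followed less closely, by DIPK1B with 0.0927, SPC24, a subunit of the NDC80 kinetochore complex, with 0.0941, and NPAS1 with 0.0987.

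The other genes of the pathway were grouped in 9 lists by role and read against the shares of all genes given above. Among 9 tested cofactors of maintenance methylation, 2 were higher and 4 lower at an adjusted p under 0.05, and HELLS, the chromatin remodeler that opens nucleosomal DNA to DNMT1, passed both thresholds. HELLS fell from 5690 ± 1109 to 2381 ± 434 normalized counts (SD, n = 4), a log2 fold change of -1.29 (edgeR adjusted p = 0.000568). Its partner CDCA7 had a log2 fold change of -0.57 (edgeR adjusted p = 0.0264) and PCNA, the sliding clamp, of -0.75 (edgeR adjusted p = 0.00958). UHRF2, the paralog of UHRF1, rose by 0.84 on the log2 scale (edgeR adjusted p = 0.0447). The calls of UHRF2 and CDCA7 were lost under 10 and 12 of 21 alternatives, among them without DZNep replicate 2 (edgeR adjusted p = 0.126 and 0.0635). The list's median log2 fold change was -0.16, against -0.03 over all genes.

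Of 11 tested genes of the list of cofactors and regulators of de novo methylation, 0 passed both thresholds by edgeR, with 2 higher and 1 lower at an adjusted p under 0.05 and a median of -0.24. The 2 higher were the H3K9 methyltransferases EHMT2, with a log2 fold change of 0.79, and SETDB1, with 0.45, and the lower was MORC2, with -0.62. These 3 were named after their values were seen. DNMT3L, the catalytically inactive partner of DNMT3A and DNMT3B, had no counts in the Control libraries and at most 7 in a DZNep library, and was not tested. Of 12 tested genes in the list of methyl-CpG binding proteins other than MBD2, 4 were higher and 2 lower at an adjusted p under 0.05, with a median of 0.43. The list also holds MBD3, MBD5, MBD6, SETDB2, BAZ2A and BAZ2B, so it is no count of proven readers of methylated CpG. MBD3 and SETDB2 were the 2 lower genes. ZBTB38, a zinc finger reader of methylated CpG, rose from 1254 ± 552 to 3916 ± 1321 normalized counts (SD, n = 4), a log2 fold change of 1.62 (edgeR adjusted p = 0.00483). SETDB2, which carries a methyl-CpG binding domain, fell by 1.58 on the log2 scale (edgeR adjusted p = 0.000233). MBD3, a NuRD subunit, fell by 0.61 (edgeR adjusted p = 0.0202), whereas MBD4 had a log2 fold change of 0.35 that did not pass (edgeR adjusted p = 0.0695) and passed under 6 of 21 alternatives, among them the replicate block (edgeR adjusted p = 0.0191). Of 14 genes in the NuRD list, 3 were higher and 2 lower at an adjusted p under 0.05, with a median of -0.04. The 2 lower were MTA1 and MBD3, which is counted in the list before as well. MTA1 fell by 2.81 (edgeR adjusted p = 5.89e-05), from between 5745 and 12582 to between 922 and 1668 normalized counts.

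Of 20 genes in a list of base excision repair and GADD45 genes, 3 were higher and 6 lower at an adjusted p under 0.05, with a median of -0.21. The list also holds glycosylases other than TDG, such as MUTYH, so it is no count of steps after TET and TDG. The glycosylase MUTYH fell by 1.63 on the log2 scale and XRCC1, the scaffold of single-strand break repair, fell by 1.38, while GADD45B, a stress-induced gene that has been linked to active demethylation, rose by 1.14. GADD45A had 1044 to 4304 normalized counts in Control and 1141 to 1539 in DZNep libraries and did not pass (edgeR adjusted p = 0.0914). With the replicate block its log2 fold change was -0.65 (edgeR adjusted p = 0.0175), and without Control replicate 2 it was -1.08 (edgeR adjusted p = 0.00873). Among 17 tested genes of the supply and regulation of TET cofactors, 1 was higher and 3 lower, with a median of 0.17. IDH2, a mitochondrial enzyme that makes 2-oxoglutarate, fell from 4690 ± 522 to 502 ± 155 normalized counts (SD, n = 4), a log2 fold change of -3.25 (edgeR adjusted p = 2.1e-05), and D2HGDH, which clears D-2-hydroxyglutarate, fell by 1.31. The cytosolic enzyme IDH1 had a log2 fold change of 0.33 (edgeR adjusted p = 0.143), and passed with the replicate block (edgeR adjusted p = 0.0325) and without Control replicate 2 (edgeR adjusted p = 0.0358). The subunits of the mitochondrial IDH3 complex, which also makes 2-oxoglutarate and was named after its values were seen, had log2 fold changes of 0.37 for IDH3A, 0.17 for IDH3B and -0.35 for IDH3G and did not pass. With the block IDH3A and IDH3G passed (edgeR adjusted p = 0.0443 and 0.0214). Of 7 tested deaminases, 1 was higher and 2 lower, and APOBEC2, with at most 75.2 normalized counts, fell by 2.42 (edgeR adjusted p = 0.0357), a call lost under 8 of 19 alternatives, among them without DZNep replicate 2 (edgeR adjusted p = 0.0961).

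DNMT1 and UHRF1 are transcribed mainly in S phase, so genes of DNA replication and S phase were listed beside them. Of 41 such genes, 4 were higher and 9 lower at an adjusted p under 0.05, with a median log2 fold change of -0.02. PCNA and LIG1 among the lower and FEN1 among the higher are counted in lists before as well. LIG1 and FEN1 are named for this overlap alone. POLA2, a subunit of DNA polymerase alpha, fell by 1.72 on the log2 scale, and the transcription factor E2F2 fell by 1.22. Of 30 germline genes known for methylated promoters, 13 passed the filter on low counts, and of these 6 were higher and 3 lower past both thresholds. Genes silent in Control could pass that filter only where they were higher in DZNep, so this count is no measure of the list. The 17 not tested had at most 32 counts in any library. TEX14 rose from 34.3 ± 7.27 to 356 ± 43.5 normalized counts (SD, n = 4) and PIWIL2 from 4.56 ± 2.58 to 47.1 ± 11.0. TEX11 and TDRD1 had at most 1 and 2 counts in a Control library and, with 3 counts per Control library taken as the floor, stood at least 8.17-fold and at least 4.01-fold higher in DZNep. SMC1B, TEX15 and TDRD6, named after their values were seen, had log2 fold changes of -2.52, -1.87 and -1.11.

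**Figure D4:**
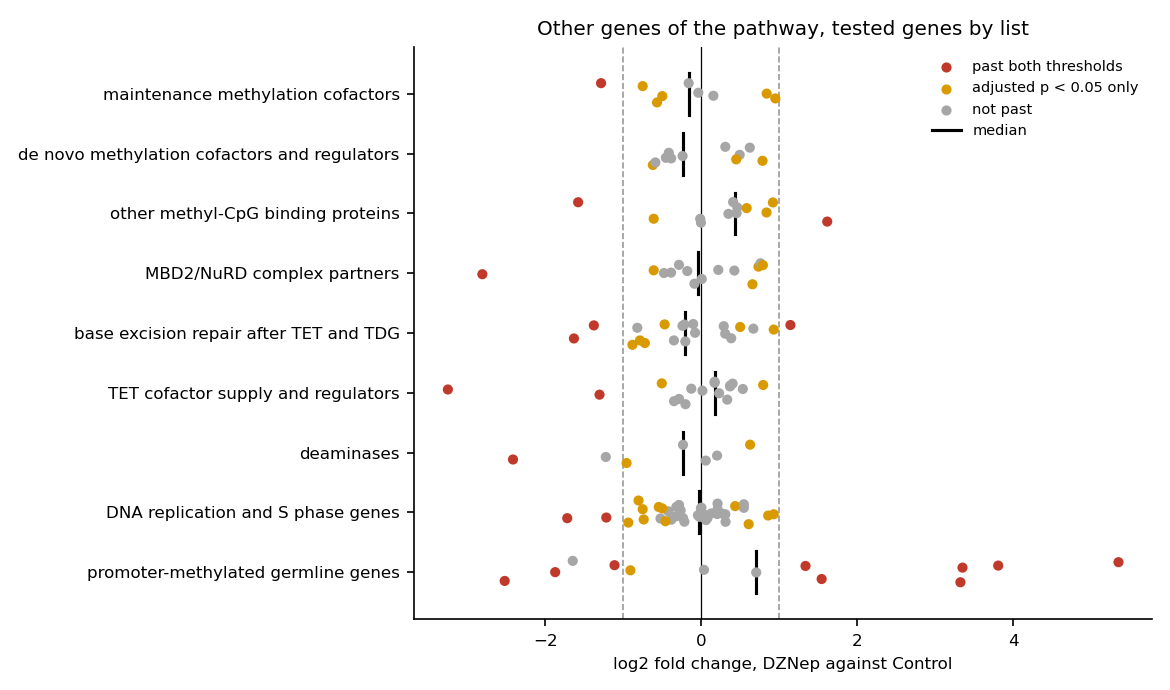
Log2 fold change of DZNep against Control (horizontal axis) of each tested gene in the 9 lists (rows); red points pass both thresholds, orange points an adjusted p under 0.05 alone, and black bars are list medians. IDH2 and MTA1 lie farthest to the left, at -3.25 and -2.81, and TEX11 farthest to the right.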

How the data were processed

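RNAseq was measured in 4 Control and 4 DZNep libraries of HEK293T cells, grouped by the treatment in the labels. The authors used Trimmomatic 0.36 for trimming, STAR 2.5.2b for alignment to GRCh38 and featureCounts of Subread 1.5.2 to count uniquely assigned exonic reads per gene. The annotation release and strandedness are not given in the sources used here. The deposited counts are not normalized. The second deposited table is a signal in normalized counts of 19118 genes, in which every library has 1 size factor that divides its counts. The normalized counts given here use those factors. The methods name RPMI as the medium and the labels DMEM.

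Members and gene lists were chosen with earlier results of these data known. Counts of 19171 genes that passed filterByExpr were tested with edgeR 4.0.16 (quasi-likelihood, robust, TMM, R 4.3.3) and Benjamini-Hochberg adjustment over all of them, with thresholds of 0.05 for the adjusted p and 1 for the absolute log2 fold change. Named genes are the 9 members, up to 4 genes per list that passed both thresholds with the largest log2 fold change, 11 genes fixed by name, and the 3 genes with the profile nearest to each changed member among genes whose mean log2 CPM reached 4. The results of 2 genes that this rule names are not reported here. The numbers were used as pairs because the labels give both groups the numbers 1 to 4. Libraries with the same number deviated from their group means together to differing degrees (correlations of 0.14, 0.49, 0.43 and 0.67 for replicates 1 to 4). Libraries with different numbers were not compared in this way, so a closer match within a number was not shown. No 2 libraries agreed within sampling noise (chi-square of 26.9 or more per degree of freedom), and each was kept as 1 replicate. Totals ranged from 25043058 to 44902779 counts, and floors cover counting error only. Alternatives were DESeq2 1.42.0, limma 3.58.1 on log2 normalized counts with a pseudocount of 1 or 5, other scalings and filters, glmTreat, the replicate block and leaving out each library. The selections of libraries and a permutation test on counts per library total were added after seeing the data. The edgeR fit by group alone was tested on simulated data, and the other fits were not. Coordinates come from GENCODE v44 (GRCh38), promoters from RefSeq.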

Additional observations from a re-analysis of the deposited data

Results flagged for a closer look

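Among the 18 groups of 4 libraries (9 members in each treatment), 1 held a library far from the others. UHRF1 had 4112 normalized counts in Control replicate 3, against 4616 to 4706 in the other Control libraries, and the gap took 0.847 of the group's range, above Dixon's critical value at the 95% level for 4 values. Chance flags about 1 in 20 groups. Without Control replicate 3 the log2 fold change of UHRF1 was -0.05 and did not pass the threshold (edgeR adjusted p = 0.831).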

How the results depend on the processing

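DNMT3A, TET3 and TDG kept their direction and an adjusted p under 0.05 under 20 of 21 alternatives, with log2 fold changes of -1.07 to -0.77, 0.69 to 0.96 and -1.12 to -0.74. The exception was glmTreat against a log2 fold change of 1, under which 0 members were higher and 0 lower and 12 list genes passed both thresholds, against 21. These list genes include germline genes, 5 higher and 2 lower by glmTreat against 6 and 3. The germline count is no measure of its list, as said above, so neither is the sum over lists. Over all genes, 941 of 19171 were higher and 1058 lower by glmTreat. With the replicate block, replicates 1 and 4 only, or replicates 2 and 3 only, 2 members were higher. Over all genes tested, 5535 of 19171, 4205 of 19987 and 4326 of 19425 were higher in these settings. The block changed no other call among the members than those of TET2 and MBD2. The number of members past both thresholds was 1 (DNMT3A) with replicates 2 and 3 only, and 0 to 1 when single libraries were left out: DNMT3A passed without Control replicate 1, and TDG without Control replicate 2, Control replicate 3 or DZNep replicate 4. At an adjusted p under 0.05, each of these leave-outs gave 1 member higher and 2 lower. Over all genes, 4666 of 19425 passed both thresholds with replicates 2 and 3 only. When any single library was left out, 4228 to 5359 of 19611 to 19922 genes passed both thresholds. At an adjusted p under 0.05, 2903 to 3982 genes were then higher and 3184 to 4537 lower. The list genes past both thresholds, germline genes included, numbered 18 to 29 when single libraries were left out. With counts per library total, the log2 difference of DNMT3B was 0.032, that of TET3 0.89 (exact permutation p = 0.0857) and that of TDG -0.84 (exact permutation p = 0.0286).

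Members near 0 changed sign without passing the threshold. UHRF1 had a log2 fold change of 0.027 with DESeq2, 0.022 with all genes with a read, 0.025 with at least 10 reads in every library, 0.075 with library sizes alone, 0.067 with library sizes without mitochondrial genes, 0.014 with limma at either pseudocount, 0.020 with median-ratio size factors, 0.057 in replicates 2 and 3 only, and between -0.083 and 0.072 when single libraries were left out. DNMT3B had 0.011 with library sizes alone, 0.0069 without mitochondrial genes, 0.14 without either library of replicate 2, 0.098 in replicates 1 and 4 only, and between -0.17 and 0.064 when single libraries were left out. TET1 had -0.064 in replicates 2 and 3 only and between -0.17 and 0.33 when single libraries were left out. For TET1 the 95% interval of the log2 fold change was -0.81 to 0.88 without and -0.24 to 0.32 with the replicate block. The cause of these shifts was not tested.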
